A study of Mus musculus with 6 samples.

Results

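The cells described here are the memory-precursor-like cells among germinal centre (GC) B cells of bone marrow chimaeric mice, taken as cluster 3 of the cell annotation deposited for the chimaera libraries. The cluster held 2249 of 15352 chimaera cells, with 1304 in the control library and 945 in the KO library, out of 38651 cells in the 6 libraries of the whole series. The study profiled splenic GC B cells of mice by droplet single-cell RNA sequencing with 5′ chemistry, after intraperitoneal immunisation with an NP-coupled antigen in alum. Besides the chimaera pair it holds 2 Day7 and 2 Day14 libraries. In the chimaeras, irradiated hosts were rebuilt with wild-type bone marrow, and the hosts were either Il4ra+/+ (control) or carried Ccl19-Cre/+ with Il4ra f/f (KO). Both were sampled at day 14, and B220+ CD95hi GL7hi IgD- cells were sorted. The Day14 libraries came from wild-type mice through the same gate.

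Ccl19-Cre is active in stromal cells of lymphoid tissue, the lineage to which follicular dendritic cells belong, so the KO hosts are designed to lose the IL-4 receptor alpha chain in stroma while the donor-derived B cells keep it. The deletion itself was not measured in these libraries. Il4ra counted in the sorted B cells is therefore no check of the host genotype. Radioresistant host B cells, if any were left, cannot be told from donor cells in these counts. Each genotype is represented by 1 library, and the labels do not say whether animals were pooled, so no p-value is given anywhere. All intervals are exact 95% intervals and cover counting error only, not differences between animals or library preparations.

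Germinal centres are the sites where activated B cells mutate their antibody genes and compete for antigen and T cell help. They hold a dark zone of dividing cells and a light zone where cells are selected, and cells leave either as plasma cells or as memory B cells. Cells on the way to memory lose the GC programme set by Bcl6, regain receptors for recirculation and stop dividing. IL-4, made by T follicular helper cells, acts on B cells through the IL-4 receptor and STAT6, and stromal cells that carry the receptor can bind IL-4 as well.

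The label was checked against its 4 markers, each summed over the cells of a cluster and scaled to a total of 1000000 UMIs (CPM). S100a10, a small EF-hand protein that partners annexin A2, stood at 474 CPM in cluster 3 and 17.4 CPM in the other cells of the control library, and at 191 and 6.35 CPM in the KO library. Klf2, a transcription factor that maintains recirculation receptors in lymphocytes, stood at 759 against 36.1 CPM for control and 596 against 45.6 CPM for KO. Ccr6, the receptor for the chemokine Ccl20, stood at 154 against 6.73 CPM and at 84.7 against 5.74 CPM. Plac8 stood at 610.05 against 27.1 CPM and at 477 against 20.4 CPM. In both libraries all 4 markers were highest in cluster 3 among the 8 deposited clusters, and the next highest level of S100a10, Klf2 and Plac8 was in cluster 7, at 105, 79.0 and 95.9 CPM in the control library. These values describe the choice of the cluster and are not tests of it, since the cells were clustered on the same counts.

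**Figure D1:**
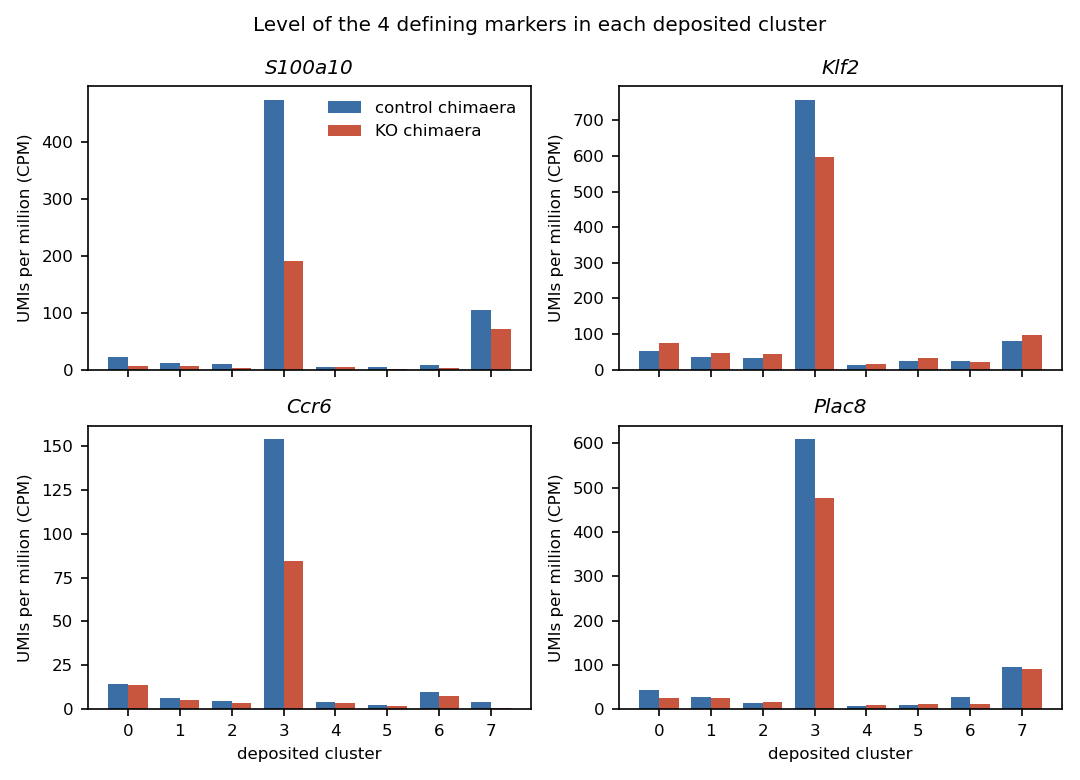
Level of S100a10, Klf2, Ccr6 and Plac8 in CPM (vertical axes) in each of the 8 deposited clusters (horizontal axes), as sums over the cells of the control (blue) and KO (red) library with no error bars, since each bar is 1 library. Cluster 3 is the tallest in every panel, and its S100a10 bar is 474 CPM for control and 191 CPM for KO cells.

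Cell by cell, the markers were patchy. After each cell was thinned to 2000 UMIs, at least 1 Klf2 UMI was found in 64.0% of control and 59.4% of KO cells of cluster 3, against 4.9% and 7.0% of the other cells. S100a10 was found in 43.0% and 24.7% of cluster 3 cells, against 2.3% and 0.9% of the other cells. Of the 4 markers, 2 or more were detected in 58.0% of control and 42.6% of KO cells of the cluster, and in 1.5% and 1.1% of the other cells. In 9.86% of control and 17.2% of KO cells of the cluster none of the 4 was seen at this depth.

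Cluster 3 made up 16.2% of control cells (15.4 to 17.0) and 12.9% of KO cells (12.2 to 13.7). Because S100a10 and Ccr6, which mark the cluster, themselves differed between the libraries, these shares are given for each library and are not read as a difference in the number of such cells. Cells of the cluster held a median of 7850.5 UMIs for control and 8843 for KO cells, against 6420.5 and 6872 in the other cells. Library totals were 62202828 and 59690886 UMIs. Ribosomal protein genes took a median of 30.2% and 30.8% of UMIs in the cluster, against 26.1% in the other cells of each library, and mitochondrial genes 2.91% and 2.88%. The libraries shared 90 cell barcodes, of which 18 were control and 9 were KO cells of the cluster. Cells among the top 5% of doublet scores made up 7.75% of control and 7.51% of KO cells of the cluster, against 4.47% and 4.63% of the other cells, and none was removed for the values below. Counts of genes without them are given with the processing alternatives.

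Against the other cells of the control library, 221 of 5381 genes with at least 20 CPM on either side were higher in cluster 3 (4.11%) and 278 were lower (5.17%), counting genes whose level differed at least by a log2 ratio of 1 with an interval that leaves out 0. In the KO library 168 of 5278 genes were higher (3.18%) and 153 were lower (2.9%). Under TMM scaling, which adds 0.12 and 0.13 to every log2 ratio of the control and the KO library, 262 genes were higher and 193 lower in the control, and 211 higher and 78 lower in the KO library. The genes lower in the KO library numbered 236 without the cells with the top 5% of doublet scores and 270 after thinning to 2000 UMIs. The calls on the CPM scale coincided between the libraries for 137 higher and 120 lower genes, and 5 immunoglobulin variable genes were called in opposite directions. The median log2 ratio over all genes tested was -0.20 for control and -0.21 for KO cells.

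The genes with the largest ratios in both libraries included small calcium-binding and cytoskeletal proteins and transcription factors. S100a6, an S100 family member also encoded on chromosome 3, stood at 388 against 4.48 CPM for control and at 301 against 5.07 CPM for KO, log2 ratios of 6.44 and 5.89. Lgals3, a galectin, stood at 51.0 against 1.41 CPM and at 29.5 against 1.26 CPM. Pdlim1, an adaptor of the actin cytoskeleton, reached 82.5 and 95.7 CPM in the cluster with at most 4.93 CPM in the other cells. The log2 ratio of each of these genes was above 4 in both libraries.

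Among transcription factors, Zbtb32, a repressor that limits the recall response of mouse memory B cells, stood at 49.1 against 2.08 CPM for control and 22.7 against 1.24 CPM for KO. Bhlhe41, needed for B-1a cells in mice, stood at 30.4 against 1.69 CPM and at 23.4 against 0.809 CPM. Klf3, a repressor of the same family as Klf2, stood at 43.3 against 2.83 CPM and at 31.2 against 1.93 CPM, and Pml, which builds nuclear bodies, at 86.8 against 6.03 CPM and at 51.5 against 3.20 CPM. Hhex, a homeobox factor required for memory B cells in mice, stood at 60.3 against 4.87 CPM and at 31.7 against 3.20 CPM. Bcl6, the repressor that maintains the GC state, was lower in the cluster, at 19.4 against 44.5 CPM and at 21.4 against 39.1 CPM, and it met the criteria in the control library only (log2 ratios of -1.20 and -0.87).

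**Figure D2:**
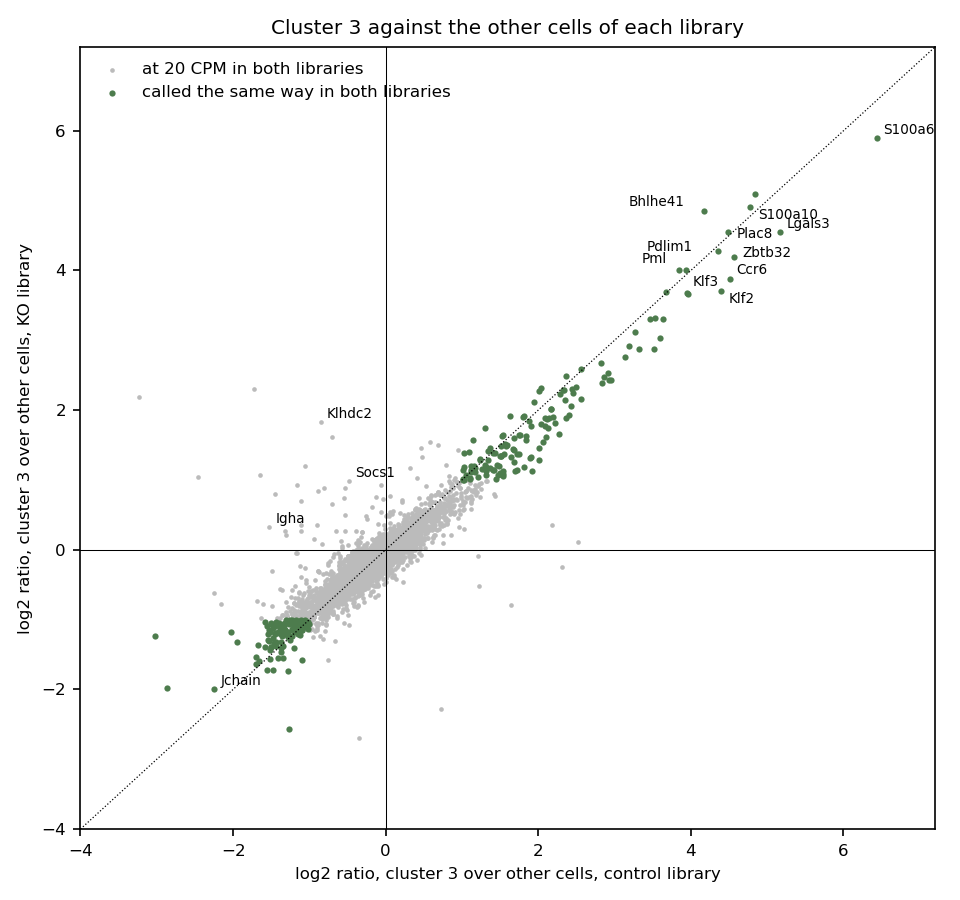
Log2 ratio of cluster 3 over the other cells in the control library (horizontal axis) and in the KO library (vertical axis), 1 point a gene for genes at 20 CPM or more in both libraries. Green points met the criteria the same way in both libraries (137 higher, 120 lower); S100a6 lies at 6.44 and 5.89, and Klhdc2, Socs1 and Igha lie above 0 only in the KO library.

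Of 25 memory-associated genes, all listed in the table, 20 reached 20 CPM in the control comparison, and 16 were higher and 0 lower in cluster 3, with a median log2 ratio of 2.62. In the KO library 17 reached that level, with 13 higher, 0 lower and a median of 2.06. Members that pass a minimum only through the cluster had to be high there, so these counts describe the list and carry no further weight. Ahnak, a large scaffold protein, stood at 44.5 against 2.0 CPM for control and 12.1 against 1.20 CPM for KO. Bcl2, which blocks apoptosis, stood at 50.4 against 4.57 CPM and at 40.2 against 4.08 CPM. Cd38, a surface enzyme that mouse GC B cells switch off and memory cells carry, stood at 105 and 66.0 CPM in the cluster, with log2 ratios of 2.82 and 2.68 over the other cells. In each library 3 tested members had ratios below 0, among them Bach2, at log2 ratios of -0.97 and -0.998. Members below the minimum included Nt5e (Cd73), at 11.1 and 10.6 CPM in the cluster.

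Receptors that place B cells in tissue were mostly higher in the cluster or not called. Of 15 trafficking genes tested in the control library 9 were higher and 1 was lower, with a median of 2.03, and in the KO library 7 of 13 were higher and 1 was lower. Of all genes tested 4.11% and 3.18% were higher. Only 8 trafficking genes reached 20 CPM in the other cells of either library. Members tested through the cluster alone had to be high there, so these counts describe the list. S1pr1, the receptor that draws lymphocytes into the circulation, stood at 76.7 and 70.2 CPM in the cluster, with log2 ratios of 3.19 and 2.91. Gpr183, which guides B cells to the outer follicle, stood at 66.9 and 92.4 CPM, with log2 ratios of 2.95 and 2.43. Itgb7, an integrin chain used for homing to the gut, stood at 95.2 against 8.20 CPM and at 51.8 against 5.17 CPM. The lower gene was S1pr2, which holds B cells in the germinal centre, at 56.5 against 153 CPM and 52.2 against 135 CPM.

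Genes of GC identity were lower in the cluster or not called. Of 17 GC identity genes tested in the control library 10 were lower and 0 higher, with a median log2 ratio of -1.17, and in the KO library 9 were lower and 0 higher, with a median of -1.16. Gcsam, an adaptor that restrains motility of GC B cells, stood at 64.4 against 203 CPM and at 71.0 against 215 CPM. Mef2b, a transcription factor that drives Bcl6, stood at 177 against 506 CPM and at 144 against 388 CPM. Hmces, which protects abasic DNA sites, stood at 191 against 619.9 CPM and 176 against 548 CPM. The levels in the cluster were uneven: in the control library Gcsam stood at 119 CPM in the first of 4 sub-clusters described below and between 15.4 and 20.1 CPM in the others, Mef2b at 314 CPM and between 39.4 and 76.9 CPM, and Hmces at 336 CPM and between 58.5 and 82.2 CPM.

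Many dark zone and cell cycle genes were lower as well. Of 9 dark zone genes tested in the control library 8 were lower, of 16 S phase genes 9, and of 20 G2/M genes 18, with medians of -1.19, -1.04 and -1.19; in the KO library 4, 4 and 8 were lower, with medians of -0.97, -0.95 and -0.95. Cdk1, the mitotic kinase, stood at 46.7 against 127 CPM for control and 54.4 against 136 CPM for KO. By the authors' phase calls 76.2% of control cells of the cluster (73.8 to 78.5) and 69.0% of KO cells (65.9 to 71.9) were in G1, against 38.5% and 34.8% of the other cells. By their zone calls 74.9% and 72.5% were light zone, against 32.7% and 30.9%. Within G1 cells alone the dark zone, S phase and G2/M medians of the cluster over other cells were -0.48, -0.61 and -0.22 for control and -0.57, -0.61 and -0.47 for KO cells.

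Plasma cell genes were lower in the cluster of the control library, and few were called in the KO library. In the control library 7 of 10 tested members were lower in the cluster with a median log2 ratio of -1.28, and in the KO library 1 of 9 was lower with a median of -0.54, while in G1 cells alone the medians were -2.13 and -0.82. The difference between the libraries was not tested. Jchain, the protein that joins IgM and IgA units, stood at 399 against 1899.7 CPM for control and 288 against 1145 CPM for KO. Slpi, a protease inhibitor, stood at 206 against 663 CPM and at 189 against 313 CPM. Most of that gap lay in the other cells: the list summed to 2135 and 2177 CPM in cluster 3 of the 2 libraries, and to 4856 and 3277 CPM in the other cells, where the plasma-like cluster 7 held 288 control and 136 KO cells.

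Genes known from naive and other B cell types were compared in the same way, against the other sorted GC cells of each library. Of 11 naive follicular genes tested in the control library 5 were higher, with a median log2 ratio of 0.74, and in the KO library 2 of 9, with a median of 0.34. In G1 cells alone the medians were 0.24 and -0.086, so the KO median turned its direction. Ighd, the IgD constant region, stood at 65.0 against 15.2 CPM and 40.5 against 13.3 CPM, in cells sorted as IgD-. Cmah, St3gal1 and St3gal6, which act on sialic acids and of which Cmah is known to be low when the GL7 epitope is shown, were higher in both libraries, with Cmah at 56.3 against 16.1 CPM and 25.4 against 11.2 CPM. Of 6 atypical B cell genes 3 were tested in the control library, Zbtb32, Fcrl5 and Cxcr3, and all were higher. None of the 6 reached 20 CPM in the other cells, so those tested had to be high in the cluster and the count carries no further weight. Cell cycle brakes held 3 higher of 10 in the control library, among them Cdkn1b (p27) at 34.7 against 11.97 CPM, and 1 higher of 9 in the KO library, with medians of 0.08 and -0.33. Glycolysis, oxidative phosphorylation, chaperone, MHC class II and B cell receptor signalling genes held no call in either direction in either library.

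Markers of other cell types were measured beside these groups. Summed over 10 T cell markers the cluster held 45.7 CPM for control and 38.2 CPM for KO cells, against 85.3 and 61.2 CPM in the other cells, most of it Lck, with 1 of the 10 at 0 in the cluster. The 11 myeloid markers summed to 298 and 224 CPM in the cluster and to 202 and 199.95 CPM in the other cells, mostly Cst3, and Tyrobp, an adaptor of myeloid and NK cell receptors, stood at 27.5 and 23.1 CPM against 2.75 and 3.16 CPM. Of 10 stromal and follicular dendritic cell markers 6 are in the table, 2 of them at 0 in the cluster, and they summed to 1.87 and 0.889 CPM. The 5 erythroid markers summed to 47.9 and 41.7 CPM, against 78.7 and 62.9 CPM. The part of such RNA in the results was not tested.

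The same gene set was examined in libraries that played no part in choosing it. In the Day14 wild-type table, cluster 6 carries the same 4 markers and held 535 cells (5.87%) and 307 cells (2.88%) of the 2 libraries. All 137 genes higher in cluster 3 of both chimaeras were also higher in Day14 cluster 6 than in the other cells of both Day14 libraries, 122 of them by a log2 ratio of at least 1, with medians of 1.90 and 2.02. Of the 120 lower genes 112 were lower in both Day14 libraries and 37 by at least 1, with medians of -0.95 and -1.10. Of all 5381 genes tested in the control library, 1743 were higher in Day14 cluster 6 in both libraries and 319 by at least 1, while 2935 were lower in both and 95 by at least 1. The Day14 cluster was itself picked by the 4 markers, so genes that vary with them are favoured.

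Cluster 3 also differed from the other cells in its antibody chains. Among cells with a top heavy chain of at least 2 UMIs, Ighm led in 70.5% of control cells of the cluster (67.8 to 73.1) and 75.5% of KO cells (72.5 to 78.3), against 59.6% and 64.5% of the other cells. Ighg1, the switched chain most common after alum immunisation, led in 13.3% and 13.9%, against 25.7% and 26.4%. Most cells of the cluster with a called chain thus carried unswitched IgM transcripts in both libraries, but unevenly. In sub-cluster 2, described below and highest in S100a10, Ighm led in 42.0% of control cells (35.8 to 48.5) and 53.9% of KO cells (46.0 to 61.7). In sub-clusters 0, 1 and 3 it led in 75.6%, 80.1% and 82.3% of control and 79.9%, 81.2% and 81.6% of KO cells.

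The light chain differed more. Iglc2, a lambda constant region, was the leading light chain in 615 of 1162 control cells of the cluster (52.9%, 50.01 to 55.8) and 443 of 857 KO cells (51.7%, 48.3 to 55.1), against 15.2% and 14.4% of the other cells. Igkc led in 32.5% and 36.2% of the cluster, against 62.9% and 64.1%, and Iglc1 in 7.92% and 8.17%, against 18.3% of the other cells of each library. With at least 5 UMIs the Iglc2 shares were 54.6% and 53.2%, against 12.5% and 12.2%. In the other 7 clusters the share ran from 3.59% to 22.7%, so the cluster 3 share was the highest of all clusters in both libraries. In Day14 cluster 6 it was 17.3% and 14.2%, against 1.96% and 1.70% of the other Day14 cells. Iglc2 (chr16:19198396-19200351, minus strand, GRCm38) and Iglc3 are near-identical, so reads may be split between them, and their separate levels are uncertain.

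Within the cluster, clustering again without immunoglobulin genes and without 1802 genes that differed between the libraries gave 4 sub-clusters. Sub-cluster 0, led by Basp1, Gcsam, Mef2b and Hmces, held 526 control and 399 KO cells, 40.3% and 42.2% of the cluster. Sub-cluster 1, led by Cd72, Cd38, Ccr6 and Ms4a4c, held 365 and 219 cells, 28.0% and 23.2%. Sub-cluster 2, led by Fscn1, Ass1, Sfn and S100a10, held 281 and 184 cells, 21.5% and 19.5%. Sub-cluster 3, led by the cell cycle genes Ube2c, Ccna2 and Cdk1, held 132 and 143 cells, 10.1% and 15.1%.

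The sub-clusters differed in GC, memory and cell cycle transcripts. In the control library S100a10 stood at 235, 383, 1053 and 511 CPM in sub-clusters 0 to 3, and Gcsam at 119, 20.1, 18.6 and 15.4 CPM. Ccr6 was highest in sub-cluster 1, at 286 CPM for control and 173 CPM for KO cells, and Klf2 in sub-cluster 2, at 1416 and 998 CPM. G1 calls made up 66.0% and 60.4% of sub-cluster 0, 99.7% and 99.5% of sub-cluster 1, 96.4% and 96.7% of sub-cluster 2, and 9.09% and 10.5% of sub-cluster 3. Cells with the top 5% of doublet scores made up 17.3% and 16.3% of sub-cluster 0 and 0% of sub-cluster 1 in both libraries. Without those cells sub-cluster 0 made up 36.2% and 38.2% of the cluster. The Iglc2 share was 39.7% and 40.2% in sub-cluster 0 and 74.6% and 69.5% in sub-cluster 1.

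**Figure D3:**
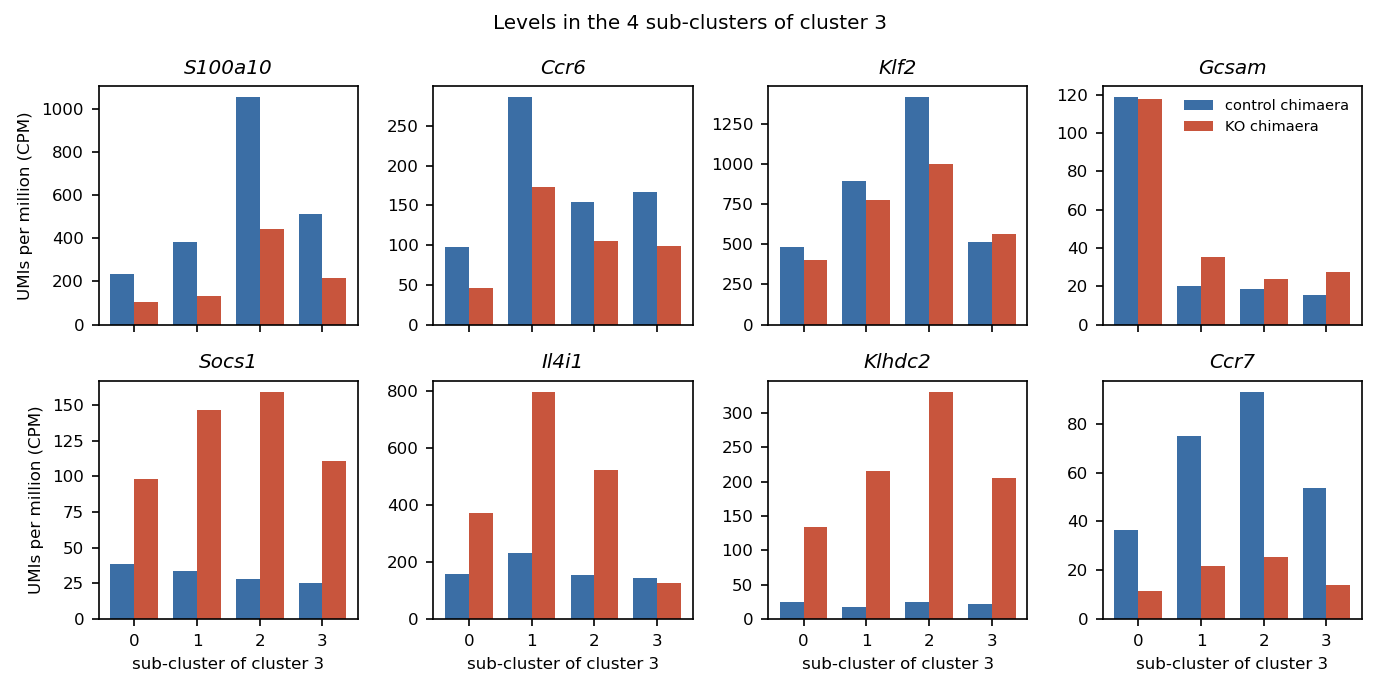
Level in CPM (vertical axes) of 8 genes in the 4 sub-clusters of cluster 3 (horizontal axes) for the control (blue) and KO (red) library, as sums over cells with no error bars. S100a10 and Ccr7 are lower and Socs1 and Klhdc2 higher in the KO library in each sub-cluster, whereas Il4i1 in sub-cluster 3 stands at 142 CPM for control and 127 CPM for KO cells.

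The comparison of KO with control within the cluster addresses how memory-precursor-like cells differ when host stroma is made to lack this receptor chain. A gene was called where it reached 20 CPM in either library, differed by a log2 ratio of at least 0.5 with an interval that leaves out 0, and differed more than the same gene did between the 2 Day14 libraries in their cluster 6. Of 4988 genes tested, 95 were higher in KO (1.9%) and 161 were lower (3.23%). After thinning to 2000 UMIs the counts were 164 and 281, of which 72 and 125 were among these calls. The median log2 ratio over all genes tested was -0.01. Immunoglobulin genes gave 6 of the higher and 28 of the lower calls. Between the Day14 libraries 146 genes were higher and 163 lower of 6314 by the same minimum, size and interval, without the last criterion. Genes were thus also called between a pair of libraries of the same kind. The numbers of calls are not directly comparable, since cluster 3 held 11254886 and 9003212 UMIs and Day14 cluster 6 held 2816459 and 1536617. The last criterion rests on that single Day14 pair, whose cells carried Xist, the transcript of the inactive X chromosome, at 1114 and 1071 CPM. Xist was at 0 in cluster 3 of both chimaera libraries.

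**Figure D4:**
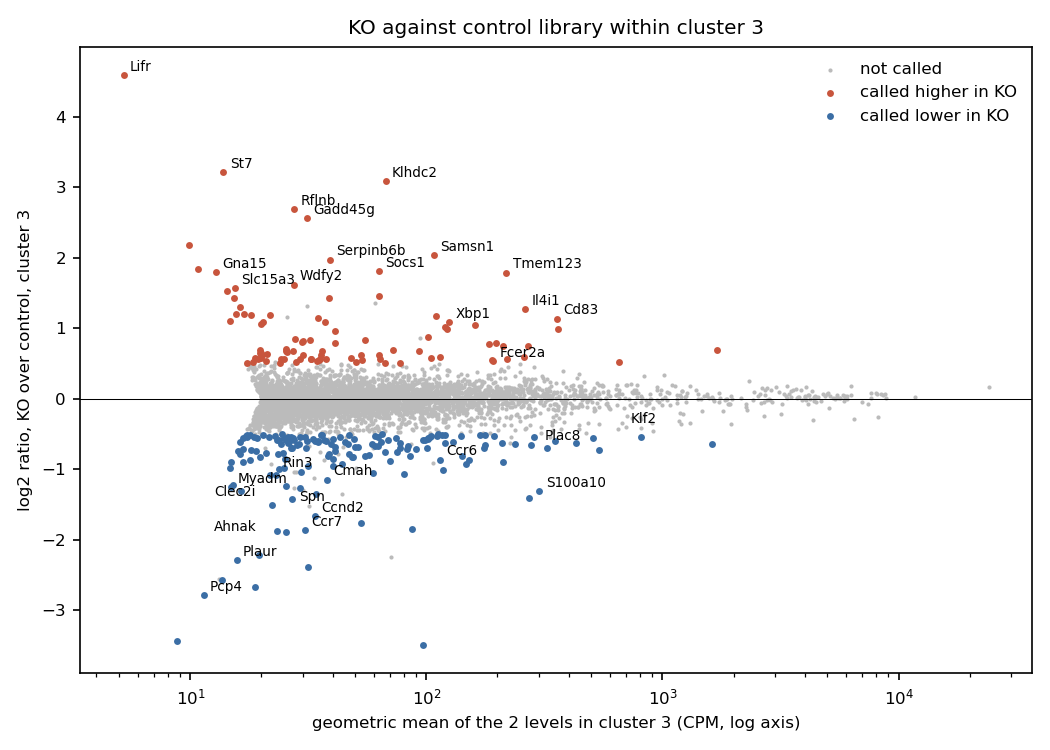
Log2 ratio of KO over control within cluster 3 (vertical axis) against the geometric mean of the 2 levels in CPM (horizontal axis, log scale), 1 point a gene. Red points were called higher (95 genes) and blue points lower (161 genes) in KO; Lifr at 4.58, St7 at 3.22 and Klhdc2 at 3.09 lie highest, and the blue points without a name that lie furthest below 0 are immunoglobulin variable genes.

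Genes of the IL-4 and STAT6 response were higher in KO cells of the cluster or not called. Of 17 listed genes 11 reached 20 CPM, and 6 were higher and 0 lower, with a median log2 ratio of 0.54. In the other cells of the same libraries 2 of 11 were higher and 0 lower, with a median of 0.10. Calls were rarer there: of all 5189 genes tested in the other cells 31 were higher and 94 lower. The 6 were Gadd45g, Socs1, Il4i1, Xbp1, Il4ra and Fcer2a. Gadd45g reached 20 CPM in the cluster only in the KO library, so once tested it had to be higher there. The list was also chosen with earlier results of these data known. Stat6, Bcl6, Batf, H2-Aa and Mybl1 were tested and not called. The median was 0.65 in G1 cells alone and 0.55 with the 4 sub-clusters weighted alike.

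Socs1, the feedback inhibitor of JAK and STAT signalling, stood at 33.7 CPM in control and 119 CPM in KO cells of the cluster, a log2 ratio of 1.82 (1.64 to 1.99). In the other cells it stood at 46.9 and 60.1 CPM, a ratio of 0.36. At equal depth a Socs1 UMI was found in 6.2% of control and 19.4% of KO cells of the cluster, against 9.1% and 11.1% of the other cells. The control cells of the cluster thus lay below the other cells and the KO cells above them. The KO level was higher in all 4 sub-clusters, at log2 ratios of 1.34, 2.11, 2.49 and 2.13.

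Il4i1, a secreted amino acid oxidase named for its induction by IL-4, stood at 169 CPM in control and 408 CPM in KO cells of the cluster, a ratio of 1.27 (1.19 to 1.36), and at 122 and 149 CPM in the other cells, a ratio of 0.28. It was highest in sub-cluster 1 of the KO library, at 796 CPM against 232 CPM in the control, and did not follow in the cycling sub-cluster 3, at 127 against 142 CPM. Gadd45g, a stress-response protein, stood at 12.8 and 75.6 CPM, a ratio of 2.56, with 2.03 in the other cells. Xbp1, a transcription factor of the secretory pathway, stood at 85.3 and 182 CPM, a ratio of 1.09, with -0.09 in the other cells. Those other cells include the plasma-like cluster 7, with 288 control and 136 KO cells, and its part in the -0.09 was not tested. Il4ra itself stood at 50.9 and 78.1 CPM, a ratio of 0.62 (0.46 to 0.78), with 0.14 in the other cells. Fcer2a, the low-affinity IgE receptor CD23, stood at 159 and 230.5 CPM, a ratio of 0.54, and here the ratio in the other cells was larger, at 0.93.

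Members below the minimum went both ways in KO over control. Nfil3, a transcription factor, stood at 1.16 CPM in control and 19.7 CPM in KO cells of the cluster, and at 2.53 and 5.29 CPM in the other cells; it stayed just under 20 CPM and was not tested. Cish, another feedback inhibitor, stood at 1.07 and 5.11 CPM. With sub-clusters weighted alike, Nfil3 and Cish had log2 ratios of 4.09 and 2.33. Socs3, Irf4, Ccl22 and Cdkn1a, also below the minimum, had ratios of -0.64, -0.67, -2.79 and 0.09 by that weighting. In G1 cells alone Ccl22 stood at 0.08 and Cdkn1a at -0.15. Ccl22 was at 0 CPM in KO cells of the cluster in every phase, and at 0.51 CPM in control G1 cells. Both of its ratios thus rest on the 3 counts set in place of 0, and the 0.08 is no rise in KO cells. Of the 8 receptor chains and signalling proteins for IL-4 and IL-21, 7 were tested, 1 (Il4ra) was higher and 0 were lower, with a median of -0.23. Il2rg, the shared gamma chain, stood at 362 and 258 CPM with a ratio of -0.49, and Il21r at 112 and 95.5 CPM.

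Promoter windows of this list were read for the letters that STAT6 is known to bind, TTC, 4 bases of any kind and GAA, a pattern that reads the same on both strands and so also covers the other strand. A window covers 250 bases before and 50 bases after an annotated start. The 16 listed genes with an entry have 20 windows, of which 1 held the pattern, and 2284 of 32851 windows of the same length in the table did (6.95%). The windows of Fcer2a, Socs1 and Il4i1 are shown because these listed genes were among those called higher in KO cells of the cluster. Sequences are from RefSeq on GRCm38.p6, written 5′ to 3′ on the strand of the gene, and capitals mark the pattern. For Fcer2a (chr8:3690812-3691111, minus strand) the pattern begins 168 bases before the start, in 1 of its 3 windows. For Socs1 (chr16:10785487-10785786, minus strand) and Il4i1 (chr7:44836038-44836337, plus strand) no match lies in the window.
Fcer2a: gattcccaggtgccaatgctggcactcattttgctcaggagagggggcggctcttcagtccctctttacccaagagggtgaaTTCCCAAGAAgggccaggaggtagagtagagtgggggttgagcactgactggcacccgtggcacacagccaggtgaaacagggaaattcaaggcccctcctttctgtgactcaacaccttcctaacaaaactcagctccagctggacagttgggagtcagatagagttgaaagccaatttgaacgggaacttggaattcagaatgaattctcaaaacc
Socs1: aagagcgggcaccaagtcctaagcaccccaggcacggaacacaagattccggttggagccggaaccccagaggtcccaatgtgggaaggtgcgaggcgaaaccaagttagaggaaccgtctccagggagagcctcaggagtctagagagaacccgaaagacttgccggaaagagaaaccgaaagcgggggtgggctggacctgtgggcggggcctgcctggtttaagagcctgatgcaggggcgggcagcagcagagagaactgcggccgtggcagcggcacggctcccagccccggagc
Il4i1: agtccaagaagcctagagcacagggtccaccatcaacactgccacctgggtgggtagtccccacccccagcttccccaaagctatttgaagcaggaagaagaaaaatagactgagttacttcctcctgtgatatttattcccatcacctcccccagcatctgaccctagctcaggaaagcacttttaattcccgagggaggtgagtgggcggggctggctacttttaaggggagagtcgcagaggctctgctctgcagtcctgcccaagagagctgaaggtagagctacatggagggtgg
A match is a description of letters and not of binding, and no match says only that these letters are not in this window.

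Outside the list, the largest ratios belonged to genes that were nearly silent in control cells. Lifr, a subunit of the receptor for leukaemia inhibitory factor, stood at 1.07 CPM in control and 25.5 CPM in KO cells of the cluster, a log2 ratio of 4.58 (3.75 to 5.56), and at 0.196 and 7.50 CPM in the other cells, a ratio of 5.26. St7 stood at 4.53 and 42.1 CPM, a ratio of 3.22, with 1.34 in the other cells. Rflnb, which binds filamin, stood at 10.8 and 69.8 CPM, a ratio of 2.69, with 2.41 in the other cells. All 3 were higher in KO in the other cells too, and among the other deposited clusters of the KO library Lifr reached at most 12.5 CPM.

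Klhdc2, a substrate receptor of a cullin ubiquitin ligase on chromosome 12 (chr12:69296681-69310687, plus strand, GRCm38), stood at 23.1 CPM in control and 196 CPM in KO cells of the cluster, a log2 ratio of 3.09 (2.90 to 3.28), and at 41.7 and 55.0 CPM in the other cells, a ratio of 0.40. At equal depth a UMI was found in 4.2% and 26.1% of cluster 3 cells, against 7.3% and 9.0% of the other cells. The control level in the cluster was the lowest of the 8 deposited clusters and the KO level the highest. Klhdc2 was higher in KO in all 4 sub-clusters, at ratios of 2.45, 3.61, 3.73 and 3.21, and its ratio in G1 cells alone was 3.30. Between the Day14 libraries its ratio was -0.26. Whether the ratio in the cluster differs from that in the other cells was not tested, as each genotype had 1 library.

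Other genes higher in KO included signalling proteins and transporters. Samsn1, an SH3 domain adaptor that holds back B cell responses, stood at 53.0 and 217 CPM in the cluster, a ratio of 2.04, with 1.18 in the other cells. Tmem123, a membrane protein, stood at 117 and 406 CPM, a ratio of 1.79, with 0.97. Gna15, a G protein subunit, stood at 6.93 and 24.0 CPM, Serpinb6b, a protease inhibitor, at 19.6 and 77.1 CPM, Wdfy2, an endosomal protein, at 15.6 and 48.0 CPM, and Slc15a3, a lysosomal transporter, at 8.97 and 26.5 CPM. Cd83, a light zone marker that stabilises MHC class II, stood at 240.1 and 528 CPM, a ratio of 1.14 (1.07 to 1.20), with 0.53 in the other cells. Tgfbr1, a TGF-beta receptor chain, stood at 23.9 and 42.8 CPM, a ratio of 0.84, with -0.08 in the other cells, and Jund, a subunit of AP-1, at 150.2 and 259 CPM. For each of these genes the KO cluster held the higher level also when cells in G1 were taken alone.

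Genes lower in KO included homing, adhesion and activation genes. Ccr7, the receptor for Ccl19 and Ccl21 that leads B cells to the T zone, stood at 58.1 CPM in control and 15.99 CPM in KO cells of the cluster, a log2 ratio of -1.86 (-2.13 to -1.60), with -1.63 in the other cells. The Day14 libraries differed in Ccr7 by -1.06. At equal depth a Ccr7 UMI was found in 11.3% of control and 3.0% of KO cells of the cluster. Ahnak stood at 44.5 and 12.1 CPM, a ratio of -1.88, and Ccnd2, a D-type cyclin, at 60.1 and 19.0 CPM, a ratio of -1.66. Plaur, the urokinase receptor, stood at 34.7 and 7.11 CPM. Pcp4, a calmodulin-binding peptide, had the largest ratio at -2.79, from 29.9 and 4.33 CPM, but its UMIs came from few cells: 10.8% of control and 2.5% of KO cells of the cluster held one.

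Spn (CD43) stood at 39.2 and 16.5 CPM, and Myadm, a membrane protein, at 23.0 and 9.66 CPM. Clec2i, a C-type lectin, stood at 37.4 and 13.2 CPM, and Rin3, an activator of Rab5, at 33.8 and 15.9 CPM. Cmah stood at 56.3 and 25.4 CPM, a ratio of -1.15, with -0.52 in the other cells. All 5 met the criteria for a lower level in KO.

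**Figure D5:**
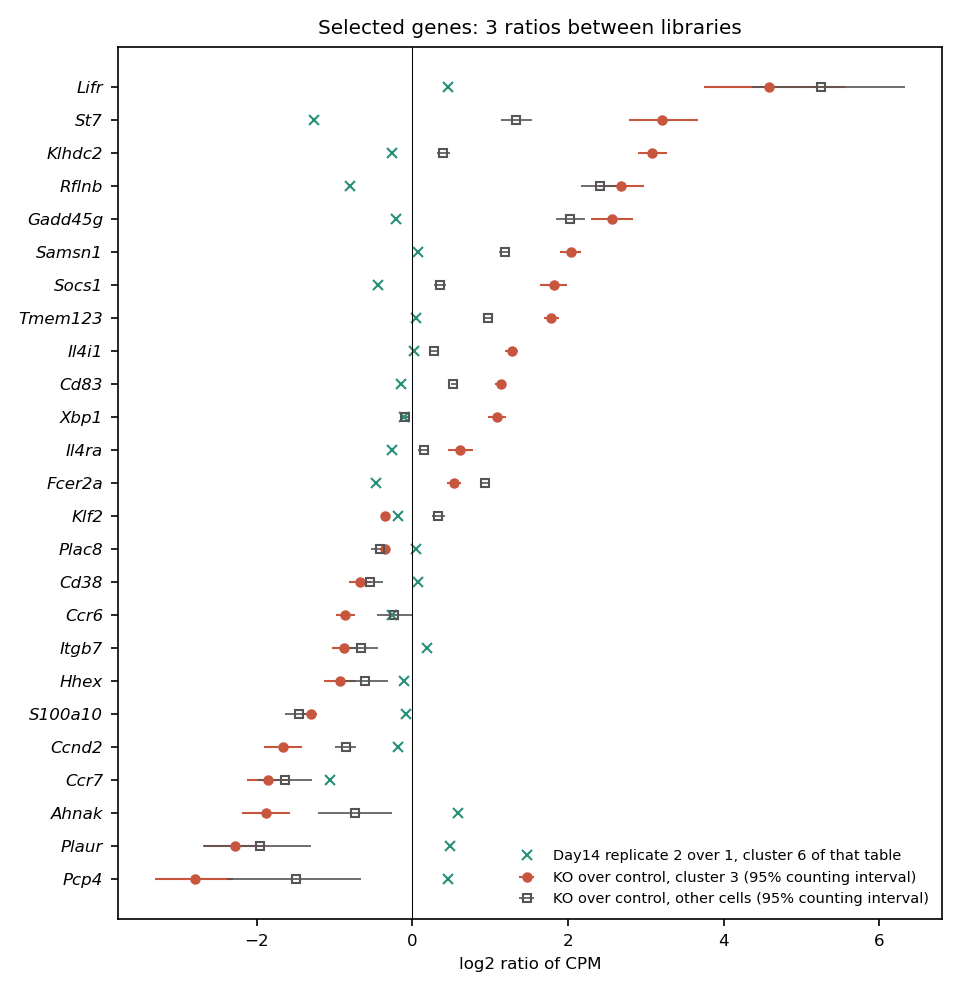
Log2 ratios (horizontal axis) of selected genes: KO over control within cluster 3 (red circles) and in the other cells (open squares), with 95% counting intervals as bars, and Day14 replicate 2 over replicate 1 in cluster 6 of that table (green crosses). Socs1 lies at 1.82 in the cluster and 0.36 in the other cells, Klhdc2 at 3.09 and 0.40, and S100a10 at -1.31 and -1.45.

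Of the 4 defining markers, S100a10 and Ccr6 were called lower in KO, at log2 ratios of -1.31 and -0.86, while Klf2 and Plac8 stood at -0.35 and -0.36 and were not called. S100a10 was also lower in the other cells, at -1.45, and in each sub-cluster, between -1.20 and -1.56. Klf2 went the other way in the other cells, at 0.34.

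Members of the memory-associated list were lower in KO or not called. Of 20 members tested, 0 were higher and 8 were lower, with a median log2 ratio of -0.48, and 19 of 20 ratios were below 0. Lower calls were not confined to the list. Of all 221 tested genes called higher in cluster 3 of the control library, 73 were called lower in KO and 6 higher. Those 221 genes were picked on the same control counts that enter the KO over control ratio, which favours ratios below 0. Among the 8 were Ahnak, Hhex, Itgb7, Cd38, Itga4, Ltb and Emp3. Hhex stood at 60.3 and 31.7 CPM, a ratio of -0.93, Itgb7 at 95.2 and 51.8 CPM, a ratio of -0.88, and Cd38 at 105 and 66.0 CPM, a ratio of -0.68. Zbtb32 and Cxcr3 had ratios of -1.12 and -1.30 but differed by 1.23 and 1.55 between the Day14 libraries and were not called. The exception in direction was Gpr183, at 66.9 and 92.4 CPM with a ratio of 0.47. The median of the list was -0.52 in G1 cells alone and -0.47 with sub-clusters weighted alike. In the other cells 8 members were tested, none was called and the median was -0.10, where 94 of all 5189 tested genes were called lower.

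Related groups gave similar counts, in part through the same genes. Of 15 trafficking genes 0 were higher and 6 lower, with a median of -0.39, and of 11 S100, annexin and galectin genes 0 were higher and 5 lower, with a median of -0.49. S1pr1 and S1pr4 stood apart within the trafficking group, at 76.7 and 70.2 CPM and at 76.3 and 75.6 CPM. S100a11 stood at 296 and 189.9 CPM, Anxa2, the partner of S100a10, at 259 and 168 CPM, and Lgals3 at 51.0 and 29.5 CPM. Of 11 naive follicular genes 1 was higher (Fcer2a) and 4 were lower, Ccr7, Ighd, Fcmr and Zfp318, with a median of -0.28.

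Signalling groups were split. Of 15 B cell receptor signalling genes 3 were lower and 0 higher: Cd72, an inhibitory co-receptor, stood at 204 and 112 CPM, Cr2, the complement receptor, at 72.9 and 41.5 CPM, and Fcgr2b, the inhibitory Fc receptor, at 149 and 96.6 CPM. Of 12 light zone genes 1 was higher (Cd83) and 4 were lower, and of 8 immediate early genes 1 was higher (Jund) and 3 were lower, Egr1, Ier2 and Junb. Traf1 and Nfkbie, 2 of 11 CD40 and NF-kB genes, were lower, at 73.7 and 47.2 CPM and at 60.2 and 40.5 CPM. Of 7 interferon genes 3 were lower, Isg15, Ly6a and Ifi203, with a median of -0.45, against -0.43 in the other cells. Of 10 MHC class II genes H2-DMa, which helps load peptides, was higher, at 547 and 785 CPM, and none was lower. Apoe, a lipid carrier, stood at 288 and 154 CPM, with a ratio of -0.90 in the cluster and -0.86 in the other cells. Bcl2a1b and Bcl2a1d are near-identical copies whose reads may be split, and both were called lower.

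GC identity, dark zone, S phase, G2/M, MYC-driven growth, glycolysis, oxidative phosphorylation and chaperone genes held no call in KO over control apart from Ccnd2. The G2/M median was nevertheless 0.29, with all 18 tested ratios above 0, beside 16.8% G2M calls in KO and 11.3% in control cells of the cluster. In G1 cells alone it was 0.10. Of histone genes, singled out after their values were seen, 12 of 25 tested were called higher and 0 lower, with a median of 0.49 in the cluster and 0.35 in the other cells. Hist1h2ap stood at 1336 and 2166 CPM in the cluster. In G1 cells alone the histone median was 0.45.

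Immunoglobulin variable genes differed between the libraries within the cluster. Igkv14-100 stood at 326 CPM in control and 29.0 CPM in KO cells of the cluster, and Igkv10-96 at 442 and 167 CPM. A variable gene level can be set by few expanded clones of a mouse, and clones were not analysed here. Igha stood at 38.3 and 35.7 CPM in the cluster, and in the KO library the 10 richest cells held 81.9% of its UMIs. These genes are given as values and are not counted with the gene groups.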

How the data were processed

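UMI counts per gene and cell were used as deposited, with the authors' cluster, phase and zone calls for each cell; 1 further column was not used. The submitters' processing notes name Cell Ranger, Seurat and mm10, and settings are not given in the sources used here. The values were checked as whole numbers. The chimaera table lists 15763 genes, and no cell holds more than 19996 UMIs or 9.97% mitochondrial UMIs. Every deposited cell entered the sums, and doublets were not removed.

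For each library and set of cells, counts were added up and scaled to a total of 1000000 (CPM). Ratios are on the log2 scale with 95% intervals from the exact conditional binomial distribution; shares have exact Clopper-Pearson 95% intervals, and a count of 0 was set to 3 counts in ratios. PCR duplicates are removed by UMIs, but intervals still cover counting error only.

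Members and the 37 gene lists were chosen with earlier results of these data known. Named genes were the 12 with the largest ratios in each direction that met the criteria, without immunoglobulin, mitochondrial, ribosomal and predicted genes, for the cluster by the smaller ratio of both libraries, plus the 4 markers and up to 4 members of each list. Any other gene named was chosen after its values were seen. Doublet scores were the share of simulated doublets among a cell's nearest neighbours. Sub-clusters used 1500 variable genes. Gene positions are from GENCODE on GRCm38.

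Tools were Python 3.11.15 with numpy 2.4.6, scipy 1.17.1, pandas 2.3.3, scikit-learn 1.9.0, leidenalg 0.10.2 and matplotlib 3.10.9, and edgeR 4.0.16 in R 4.3.3 for TMM factors only. Alternatives were TMM scaling, totals without immunoglobulin genes, cells weighted alike, thinning to 2000 UMIs, G1 cells only, other minimum levels and thresholds, and leaving out the top 5% of doublet scores or shared barcodes. Some genes that met the rule for named genes are not reported here.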

Additional observations from a re-analysis of the deposited data

Results flagged for a closer look

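For 6 genes the ratio of cluster 3 over the other cells went one way in the control and the other way in the KO library, with both counting intervals leaving out 0. Klhdc2 stood at a log2 ratio of -0.85 (control) and 1.83 (KO), and Socs1 at -0.48 and 0.98. Igha stood at -1.53 and 0.32, with 81.9% of its KO cluster 3 UMIs in 10 cells. In G1 cells alone Igha stood at -2.60 and -0.94, so that both ratios were below 0. Cd83 stood at -0.062 and 0.55, and at -0.52 and 0.063 in G1 cells, Cst3 at 0.34 and -0.11, and Ptpn6, a phosphatase that restrains B cell receptor signalling, at 0.13 and -0.13. The difference between the libraries was not tested for any of the 6, since each genotype had 1 library.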

How the results depend on the processing

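In G1 cells alone 2 printed values without a call reversed: the naive follicular median in the KO library, from 0.34 to -0.086, and the Igha ratio in the KO library, from 0.32 to -0.94. In the order higher and lower in cluster 3 of the control library, higher and lower in cluster 3 of the KO library, then higher and lower in KO over control, the counts were 449, 446, 358, 262, 199 and 366 genes at a minimum of 5 CPM, 919, 708, 745, 461, 284 and 538 with no minimum, and 133, 47, 89, 20, 34 and 31 with thresholds raised by 0.5. Lower minimums test more genes, and raised thresholds ask the same genes for larger ratios. Genes lower in cluster 3 of the KO library numbered 78 under TMM scaling, 236 without the top 5% of doublet scores and 270 after thinning to 2000 UMIs. Thinning also gave 164 higher and 281 lower genes in KO over control, of which 72 and 125 were among the main calls, and G1 cells alone gave 183 lower genes in the control library. The share of cells in cluster 3 was 27.7% and 22.7% of G1 cells and 19.5% and 16.8% of cells above the median UMI count, in control and KO. The cause of these moves was not tested. Without the Day14 criterion 101 genes were higher and 190 lower in KO, and without shared barcodes 95 and 159. Of the values of named genes, 40 of 75 moved in G1 cells alone, 35 after thinning and 0 without immunoglobulin genes in the totals. No paired analysis was possible because each genotype had 1 library. Depth limits genes under 20 CPM, and spread between animals is unknown.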

Other observations

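Some genes of a cytokine receptor list were also higher in the memory-precursor-like cells. Of 12 members tested in the control library 6 were higher than in the other cells and 0 lower, with a median log2 ratio of 0.88. In the KO library 3 of 11 were higher, with a median of 0.37, which was 0.011 in G1 cells alone. Only 8 members reached 20 CPM in the other cells of either library. Members tested through the cluster alone had to be high there, so these counts describe the list. Il4ra, which is on the list, stood at log2 ratios of -0.44 (control) and 0.011 (KO) over the other cells in G1 cells alone. Il9r, the receptor chain for IL-9, stood at 20.7 against 5.44 CPM in the control and 16.7 against 4.50 CPM in the KO library. Il10ra stood at 39.2 against 11.9 CPM and at 24.2 against 10.97 CPM, and Il10rb at 35.3 against 14.1 CPM and 29.1 against 12.8 CPM. Within the cluster 2 were higher in KO, Il4ra and Tgfbr1, and 2 were lower, Il10ra and Ifngr1, the latter at 97.7 CPM in control and 57.6 CPM in KO cells.

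Smaller groups are given as values. Of 3 Ms4a family genes tested in KO over control, Ms4a4c and Ms4a6c were lower, at 85.5 and 41.2 CPM and at 30.7 and 17.9 CPM, while Ms4a1 (CD20) stood at 1328 and 1449 CPM. Tnfrsf13b (TACI) was higher in the cluster than in the other cells of the control library, at 169 against 77.9 CPM, and stood at 137 against 84.8 CPM in the KO library. Of 10 apoptosis genes in the control library Bcl2 was higher and none was lower. Of 5 marginal zone and B-1 genes tested, Cd9 was the only one called higher in the cluster, in both libraries. It stood at 29.3 against 11.9 CPM for control and 28.8 against 8.60 CPM for KO cells. Most ratios of the list were below 0, with no gene called lower. For control 3 of 5 were below 0, with a median log2 ratio of -0.30. For KO cells 4 of 5 were below 0, with a median of -0.17.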
